A study of Mus musculus with 2 samples.

Results

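The 4 Notch receptor genes, Notch1, Notch2, Notch3 and Notch4, were followed by name through all cell populations of 1 single-cell library from postnatal mouse heart and liver, out of 21951 gene and transgene features counted. The genes were taken as a family and not for their values, and all 4 reached at least 200 unique molecular identifiers (UMIs, each standing for 1 captured transcript) over the 12 populations described here. The study used 2 Cre-expressing reporter alleles, iSuRe-Cre and iSuRe-HadCre, which couple a membrane Tomato reporter to Cre so that reporter-positive cells also lose floxed genes. Per the labels, C57BL/6 mice with Cdh5-CreERT2, a tamoxifen-inducible Cre driven by an endothelial promoter, received 1 dose of 40 mg/kg 4-hydroxytamoxifen on postnatal day 3 and were taken 3 days later, at P6 to P7. Cells from heart and liver, each in a control, an iSuRe-Cre and an iSuRe-HadCre group, were tagged with 6 hashtag antibodies, sorted as CD31+ MbTomato+ cells and loaded together, while the design text speaks of cells with or without Tomato. The genotype label names only Cdh5-CreERT2 + iHadSuRe-Cre, the control genotype is not given there, and a floxed Notch1 allele in both iSuRe groups is named in the paper and not in the labels. Each group is therefore 1 hashtagged pool without a replicate, no test was possible, and all intervals are exact 95% intervals that cover counting error only.

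Endothelial cells were barcodes with at least 1 UMI of Cdh5 (VE-cadherin) and 1 hashtag above its minimum. They numbered 255 in control heart, 437 in iSuRe-Cre heart, 319 in iSuRe-HadCre heart, 61 in control liver, 903 in iSuRe-Cre liver and 84 in iSuRe-HadCre liver. The median depth ran from 7392 UMIs per cell in iSuRe-HadCre heart to 16398 in iSuRe-Cre heart, and the summed depth from 838074 UMIs in control liver to 10253165 in iSuRe-Cre liver. Other cells were gated by at least 5 UMIs of 1 marker, with no UMI of Cdh5 or Pecam1 and fewer than 5 UMIs of the other markers (Col3a1 was allowed in the Myh11 gate). These gates held 136 Krt5, 172 Col2a1, 965 Col3a1, 38 Myh11, 7 Prph and 51 C1qa cells at medians of 14984 to 22095 UMIs per cell. Of the gated cells, 95.9% to 100% per gate had no hashtag, so their tissue and genotype are unknown, and how they came into a sort for CD31 was not tested.

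The populations held the markers of their names. All 8 endothelial markers were counted in each hashtag group, at a summed 2796 (control liver) to 4005 CPM (iSuRe-HadCre heart), where CPM is a gene's UMIs per 1000000 UMIs of the population. In the 6 gates the same list summed to 47.3 to 85.3 CPM, led by Egfl7, with Pecam1 at 0 by the gate. All 7 basal keratinocyte markers were present in the Krt5 gate (3245 CPM, Krt14 highest at 1108), all 7 chondrocyte markers in the Col2a1 gate (3763 CPM), all 6 mesenchymal markers in the Col3a1 gate (3507 CPM) and all 7 smooth muscle markers in the Myh11 gate (13242 CPM, Acta2 highest at 6691). The Prph gate held all 7 peripheral neuron markers (10272 CPM) and the C1qa gate all 7 macrophage markers (6813 CPM).

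Notch receptors are single-pass transmembrane proteins that bind Delta-like and Jagged ligands on neighbouring cells. Ligand binding exposes them to ADAM proteases and then to gamma-secretase, which frees an intracellular domain that enters the nucleus and switches on Hes and Hey genes together with RBPJ. In vessels, Notch1 and Notch4 are known from endothelial cells and Notch3 from smooth muscle cells and pericytes, and Notch signalling is needed for arteries to form.

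By the GENCODE M21 annotation of GRCm38, the build used for counting, Notch1 (ENSMUSG00000026923) lies on chromosome 2 from 26457903 to 26516663 on the minus strand. Notch2 (ENSMUSG00000027878) lies on chromosome 3 from 98013527 to 98150361 on the plus strand. Chromosome 17 carries both Notch3 (ENSMUSG00000038146), from 32120820 to 32166852 on the minus strand, and Notch4 (ENSMUSG00000015468), from 34564268 to 34588503 on the plus strand. Their longest coding transcripts have 34, 34, 33 and 30 exons. The promoters of Notch1 and Notch4, which both were highest in endothelial groups, are shown because they differ in base composition. The windows run from 250 bases before to 50 after the start site in RefSeq (GRCm38.p6), chr2:26503773-26504072 on the minus strand and chr17:34564045-34564344 on the plus strand. Capitals mark GC boxes (GGGCGG, either strand) in Notch1 and an AP-1 match (TGAGTCA, either strand) in Notch4. The Notch1 window lies inside the GENCODE gene, which begins farther upstream.
Notch1: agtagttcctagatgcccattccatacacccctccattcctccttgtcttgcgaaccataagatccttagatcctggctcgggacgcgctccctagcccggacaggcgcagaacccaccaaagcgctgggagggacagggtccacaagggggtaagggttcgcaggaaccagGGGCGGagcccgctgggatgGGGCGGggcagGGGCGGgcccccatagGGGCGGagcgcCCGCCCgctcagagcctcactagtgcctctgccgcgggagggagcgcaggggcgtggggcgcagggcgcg
Notch4: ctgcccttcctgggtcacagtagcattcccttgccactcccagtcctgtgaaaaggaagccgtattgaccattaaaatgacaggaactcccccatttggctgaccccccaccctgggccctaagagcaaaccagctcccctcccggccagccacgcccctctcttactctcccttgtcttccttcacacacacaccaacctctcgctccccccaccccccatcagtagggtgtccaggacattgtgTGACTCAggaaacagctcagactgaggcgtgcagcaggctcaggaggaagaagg
The Notch1 window had 23 CpG dinucleotides and 5 GC boxes, that of Notch2 had 41 and 7, that of Notch3 25 and 4, and that of Notch4 5 and none. Over 27025 promoters the median was 7 CpG, and 35.9% held a GC box. The AP-1 letters, found only in the Notch4 window among these 4, were in 5.17% of all promoters. An ETS core (CGGAAG), held by 17.2% of promoters, was found only in the Notch2 window, and the RBPJ core (TGGGAA, in 25.5%) in none of the 4. A match is a description of the letters and not a bound site.

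Notch1, the main endothelial receptor, was highest in control endothelium. It stood at 137 CPM in control heart (95% interval 124 to 151), 12.9 in iSuRe-Cre heart (10.6 to 15.6) and 23.5 in iSuRe-HadCre heart (18.5 to 29.3). In liver it stood at 143 CPM in control (119 to 171), 21.65 in iSuRe-Cre (18.9 to 24.7) and 33.5 in iSuRe-HadCre (22.4 to 48.1). Both controls were thus high and alike in Notch1 level, and the intervals of the 4 iSuRe groups lay below those of both controls. Relative to control of the same tissue, Notch1 was 0.0941 in iSuRe-Cre heart (95% interval 0.0754 to 0.117), 0.171 in iSuRe-HadCre heart (0.133 to 0.218), 0.151 in iSuRe-Cre liver (0.121 to 0.19) and 0.234 in iSuRe-HadCre liver (0.15 to 0.353). Under the alternatives these ratios ran from 0.04817 to 0.1355, 0.1096 to 0.2305, 0.1012 to 0.2231 and 0.1216 to 0.3653, in that order. Both iSuRe groups share the control of their tissue. In liver the groups also differed in cell mix. Cells with at least 3 UMIs of the sinusoidal gene Stab2 made up 1.64% of control and 58.6% of iSuRe-Cre liver. Those with the endocardial marker Npr3 made up 21.3% and 1.33%. The liver ratios of all receptors thus compare unlike mixes, and control liver held only 1 Stab2 cell to compare. The level in iSuRe-HadCre was 1.82 times (1.34 to 2.46) that in iSuRe-Cre heart and 1.55 times (1.01 to 2.28) that in iSuRe-Cre liver. In cells with a log-normalized WPRE level above 0.5 the heart ratio was 1.26, with an interval that held 1 (0.87 to 1.84). The liver ratio had an interval that held 1 under 6 alternatives, among them a hashtag minimum of 10 (1.27, 0.873 to 1.79) and a log-normalized Cdh5 level above 0.9 (1.44, 0.87 to 2.26). The hashtag minimum was chosen in an earlier analysis that had seen Notch1 by hashtag count. The deposited counts do not tell where in the gene a UMI lies, so transcripts of a recombined allele may be among those counted.

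Outside the endothelium, Notch1 was highest in the Krt5 gate, whose basal keratinocyte-like cells renew stratified epithelium. It was at 89.1 CPM there (79.1 to 100), 0.649 times the level in control heart (0.557 to 0.756). The other gates gave 27.5 CPM in Col2a1, 26.0 in Col3a1, 25.8 in C1qa and 10.2 in Myh11 cells. In the order from high to low, neighbours were set apart beyond counting error at only 3 steps, control heart above the Krt5 gate, the Krt5 gate above iSuRe-HadCre liver, and iSuRe-Cre liver above iSuRe-Cre heart. From iSuRe-HadCre liver down to iSuRe-Cre liver, each population overlapped the next. In the Prph gate no receptor UMI was counted among 141459 UMIs, which allows up to 21.2 CPM of each, so low receptor levels in its 7 peripheral neuron-like cells were not detectable at this depth. At 3 marker UMIs in place of 5 the gate held 10 cells, with 7 Notch1 UMIs (36.5 CPM) and 5 Notch2 UMIs (26.1 CPM), so the count of 0 rests on the gate. The plot of receptor levels shows these populations side by side.

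**Figure D1:**
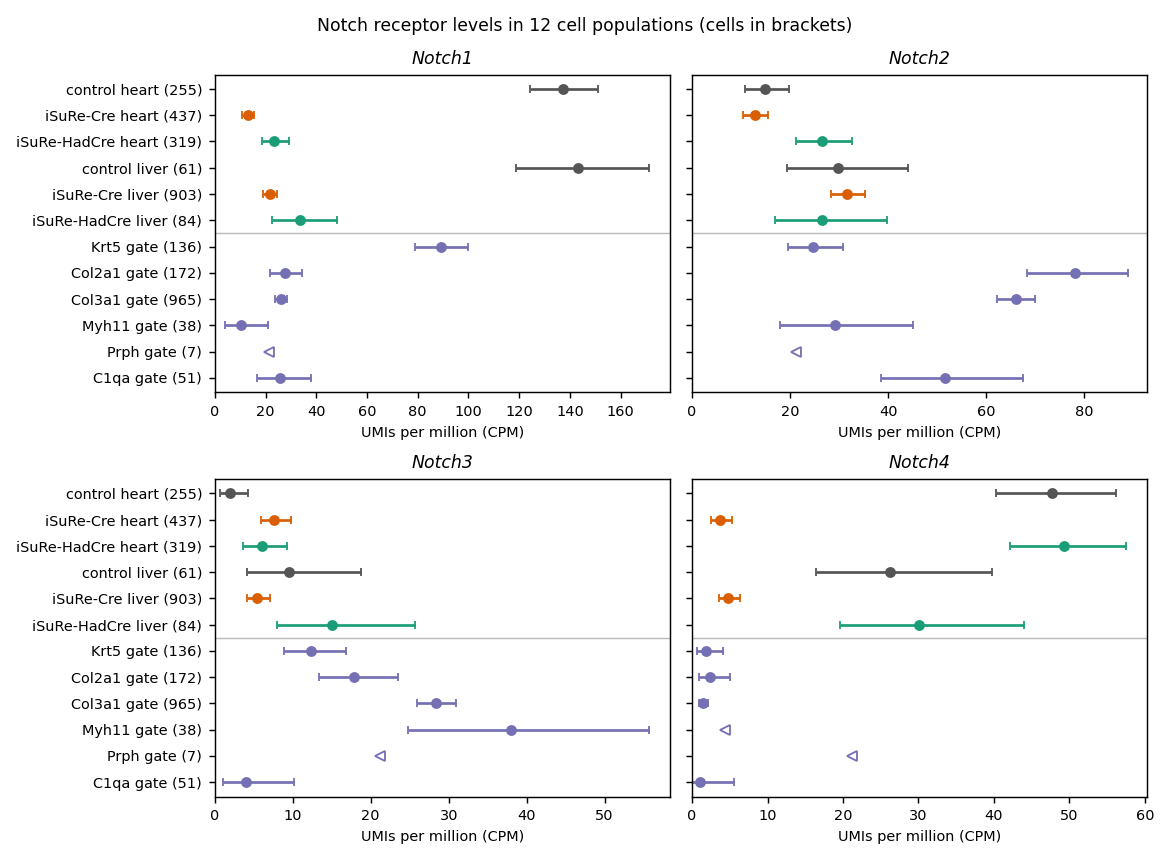
CPM (x axis, UMIs scaled to the population's total, from 0, a separate scale per gene) of each Notch receptor in the 6 endothelial hashtag groups (above the line) and the 6 marker gates (below it), with cell numbers in brackets. Points are summed levels with exact 95% Poisson intervals, and open triangles mark the upper level that a count of 0 allows. Notch1 is highest in both controls and the Krt5 gate, Notch2 in the Col2a1 and Col3a1 gates, Notch3 in the Myh11 and Col3a1 gates, and Notch4 in the control and iSuRe-HadCre groups.

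Shares of single cells also set the controls apart from the iSuRe groups. A Notch1 UMI was found in 70.2% of control heart (95% interval 64.2 to 75.7) and 75.4% of control liver cells, against 13.7% in iSuRe-Cre heart, 13.5% in iSuRe-HadCre heart, 14.6% in iSuRe-Cre liver and 17.9% in iSuRe-HadCre liver. Thinned to 2000 UMIs per cell, the shares were 25.9% and 27.3% in the controls and 1.87%, 3.14%, 3.27% and 3.89% in those 4 groups. Krt5 cells had a Notch1 UMI in 58.8% of cells (14.2% thinned). Among cells that should hold little Notch1, 0 of 32 Klf1-gated erythroid cells had a UMI at a median of 59099 UMIs per cell, which allows up to 9.38% of cells with a detected UMI, and 2 of 25 hepatocyte-gated cells (8%, 0.987% thinned) at a median of 17378. Barcodes with 10 to 100 UMIs, which hold free RNA, had Notch1 at 19.5 CPM, in the range of the iSuRe groups, and free RNA was estimated at 14.8% of UMIs in iSuRe-Cre heart, 11.9% in iSuRe-Cre liver and 16.0% in iSuRe-HadCre liver, against 1.78% in iSuRe-HadCre heart, 2.66% in control heart and 5.42% in control liver. With free RNA subtracted, Notch1 relative to control was 0.0838 in iSuRe-Cre heart, 0.1675 in iSuRe-HadCre heart, 0.146 in iSuRe-Cre liver and 0.241 in iSuRe-HadCre liver, against 0.0941, 0.171, 0.151 and 0.234 before.

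Notch4, a receptor found mainly in endothelium, had a pattern that Notch1 did not share. Its level was 47.7 CPM in control heart (95% interval 40.3 to 56.1), 3.70 in iSuRe-Cre heart (2.52 to 5.26) and 49.3 in iSuRe-HadCre heart (42.1 to 57.5). In liver it was 26.2 CPM in control (16.4 to 39.7), 4.78 in iSuRe-Cre (3.54 to 6.32) and 30.0 in iSuRe-HadCre (19.6 to 44.0). The iSuRe-HadCre groups overlapped control in both tissues, while the iSuRe-Cre groups lay below both with no overlap of intervals. Notch4 in iSuRe-Cre was 0.0776 of control in heart (0.0509 to 0.115) and 0.182 in liver (0.108 to 0.316). In iSuRe-Cre cells with a log-normalized WPRE level above 0.5 it was 0.129 of control in heart (0.0732 to 0.214) and 0.266 in liver (0.147 to 0.488). Over all cells, Notch4 in iSuRe-HadCre was 1.03 of control in heart (0.822 to 1.3) and 1.14 in liver (0.623 to 2.12). Set against each other, iSuRe-HadCre exceeded iSuRe-Cre 13.3-fold in heart (9.03 to 20.2) and 6.28-fold in liver (3.75 to 10.3). In cells with a log-normalized WPRE level above 0.5 the heart ratio was 8.14 (4.92 to 14.3), and below 6000 genes per cell 21.3 (12.85 to 37.5). Without replicate pools, the allele cannot be told apart from other differences between the pools.

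In the gates Notch4 was near 0, at 2.41 CPM in Col2a1, 1.86 in Krt5, 1.44 in Col3a1 and 0.992 in C1qa cells, with no UMI in the Myh11 gate (up to 4.38 CPM allowed). Control heart exceeded the Col3a1 gate 33.1-fold (95% interval 21.5 to 52.8). Control heart was 1.59 times iSuRe-HadCre liver (1.04 to 2.52), and control liver 5.49 times iSuRe-Cre liver (3.16 to 9.26). From iSuRe-Cre liver downward no population with a UMI was set apart from the next, and iSuRe-Cre heart was 1.54 times the Col2a1 gate (0.664 to 4.14). A Notch4 UMI was found in 39.2% of control heart, 33.9% of iSuRe-HadCre heart and 5.49% of iSuRe-Cre heart cells, and thinned to 2000 UMIs in 10.4%, 11.1% and 0.632%. Free RNA held Notch4 at 7.59 CPM, above the level in either iSuRe-Cre group, and 2 of 32 Klf1-gated and 1 of 25 hepatocyte-gated cells had a UMI (0.203% and 0.605% thinned). With free RNA subtracted, Notch4 relative to control was 0.0621 in iSuRe-Cre heart and 0.161 in iSuRe-Cre liver. The iSuRe-Cre heart cells had the highest median depth of the 6 groups.

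WPRE, an element of the reporter transcript, was counted in 46.5% of iSuRe-Cre heart and 48.6% of iSuRe-Cre liver cells, against 93.4% and 84.5% in iSuRe-HadCre and 91.0% and 75.4% in control. In the gates the share ran from 0% (Prph) to 53.7% (Krt5). In iSuRe-Cre heart, Notch4 was at 4.50 CPM in 203 cells with WPRE and 2.80 in 234 without it, and Notch1 at 15.8 and 9.68 CPM. In iSuRe-Cre heart both receptors were under the control level whether or not WPRE was counted. The level of WPRE was 63.0 CPM in iSuRe-Cre heart and 99.1 in iSuRe-Cre liver, against 122 in the Krt5 gate and 160 in free RNA. A WPRE UMI in the iSuRe-Cre groups therefore need not mark a reporter-positive cell. The split by WPRE, and the WPRE level above 0.5, cannot tell such cells apart there.

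The iSuRe-Cre allele is a transgene on the chromosome that carries Notch3 and Notch4, at a position not given in the sources used here. Of 119 features within 1 Mb of Notch4 by GENCODE M21, 49 had at least 200 UMIs in iSuRe-Cre and control heart together. None of them was at least 2-fold lower in iSuRe-Cre on the scale of log2(CPM + 10), and 8 were 2-fold higher, where 0.889% of all genes tested were lower and 2.24% higher. The next genes downstream, Gpsm3 and Pbx2, differed by 0.60 and 0.00 on that log2 scale. In iSuRe-HadCre against control heart, none of 34 was lower and 5 were higher (0.161% and 1.13% of all genes tested). In iSuRe-Cre against control liver none of 51 was lower and 10 were higher (2.04% and 3.32% of all genes tested). Among the 8 in heart were the MHC class I gene H2-K1 (521.5 against 143.8 CPM, and 348.8 in iSuRe-HadCre heart), whose reads may be shared with close paralogs, and the antigen-processing genes Psmb9 and Tap1. These genes and the neighbours were picked after their values were seen.

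**Figure D2:**
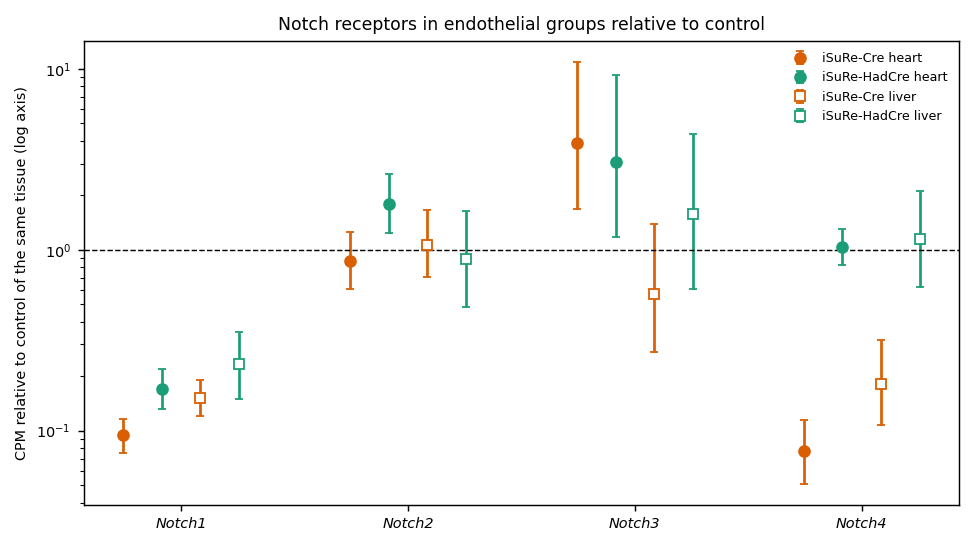
Level of each Notch receptor in iSuRe-Cre and iSuRe-HadCre endothelial cells divided by control of the same tissue (y axis, log scale, 1 marked by the dashed line), with exact conditional 95% intervals. Filled circles are heart and open squares liver. Notch1 lies below 1 in all 4 comparisons, and Notch4 in both iSuRe-Cre comparisons only, at 0.0776 and 0.182.

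Among the 12 populations, Notch2, a broadly expressed receptor, was highest outside the hashtagged endothelial groups. Cdh5-positive cells without a hashtag, which are not among the 12, held 64.0 CPM (61.7 to 66.5). The Col2a1 gate held 78.2 CPM (95% interval 68.3 to 89.0), the Col3a1 gate 66.1 (62.3 to 70.0) and the C1qa gate 51.6 (38.5 to 67.6). Col2a1 cells were 1.18 times Col3a1 cells (1.02 to 1.37), whereas Col3a1 and C1qa cells were not set apart (1.28, 0.971 to 1.73). Among endothelial groups Notch2 was at 14.8 CPM in control heart, 12.8 in iSuRe-Cre heart, 26.5 in iSuRe-HadCre heart, 29.8 in control liver, 31.7 in iSuRe-Cre liver and 26.6 in iSuRe-HadCre liver. Control liver was 2.01 times control heart (1.18 to 3.36). Of the 25 Notch2 UMIs in control liver, 12 were in 13 cells with at least 3 UMIs of the endocardial marker Npr3. From iSuRe-Cre liver to the Krt5 gate (24.8 CPM), with the Myh11 gate (29.2 CPM) in between, no neighbours were set apart. Relative to control, iSuRe-HadCre heart was 1.79 (1.23 to 2.62), the only one of the 4 Notch2 ratios whose interval lay clear of 1, beside 0.863 (0.604 to 1.25) in iSuRe-Cre heart, 1.06 (0.707 to 1.67) in iSuRe-Cre liver and 0.89 (0.483 to 1.64) in iSuRe-HadCre liver. The interval of iSuRe-HadCre heart held 1 with a log-normalized Cdh5 level above 0.9 (1.39, 0.934 to 2.08), a hashtag minimum of 50 (1.53, 0.975 to 2.41) and without cells that had a mural UMI (1.77, 0.88 to 3.73). With HTODemux hashtag calls and that Cdh5 level together, Notch2 was below control in iSuRe-Cre heart (0.652, 0.511 to 0.831) and iSuRe-Cre liver (0.532, 0.42 to 0.681).

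Markers of the Col2a1 and Col3a1 gates were higher in iSuRe-HadCre heart, where Notch2 was higher, and also in iSuRe-Cre heart, where it was not. The chondrocyte list summed to 27.3 CPM in the control, 70.6 in the iSuRe-Cre and 209 in the iSuRe-HadCre group, with Col11a1 highest in each, and only Matn1, in iSuRe-Cre heart, was at 0. The mesenchymal list, with all 6 genes counted and Col1a2 highest, summed to 299.1, 469.6 and 581.6 CPM, and the macrophage list, of the C1qa gate, to 71.4, 60.3 and 65.9 CPM (6 of 7 genes counted, C1qb highest). Without cells that had 3 or more UMIs of another gate marker, Notch2 in iSuRe-HadCre heart was 2.005 of control (1.04 to 4.02).

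A Notch2 UMI was found in 63.4% of Col2a1, 59.7% of Col3a1 and 51.0% of C1qa cells, and thinned to 2000 UMIs in 15.9%, 12.8% and 10.3%. The thinned share was 2.21% in control heart, 2.2% with iSuRe-Cre and 3.18% with iSuRe-HadCre, under the 3.31% of Klf1-gated cells, and so no Notch2 expression is read from these shares. In the liver groups it was 5.65% to 6.53%, under the 11.8% of hepatocyte-gated cells, and likewise no Notch2 expression is read from it. Hepatocyte-gated cells had 56.9 CPM and free RNA 60.7 CPM, so no population used for comparison here was clearly free of Notch2. With free RNA subtracted, Notch2 in iSuRe-Cre heart was 0.332 of control, against 0.863 before, and iSuRe-HadCre heart was 5.75 times iSuRe-Cre heart, against 2.07 (1.54 to 2.77). That last ratio was 1.3 without cells that had a mural UMI, with an interval that held 1 (0.781 to 2.12). With free RNA subtracted, the other Notch2 ratios to control were 1.91 in iSuRe-HadCre heart, 0.99 in iSuRe-Cre liver and 0.715 in iSuRe-HadCre liver. The last rests on a free RNA share that is likely too high.

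Notch3, the receptor known from mural cells, was highest in the Myh11 gate at 38.0 CPM (95% interval 24.8 to 55.7), from 26 UMIs in 38 smooth muscle-like cells. The Col3a1 gate followed at 28.3 CPM (25.9 to 31.0), not set apart from it, and the Col2a1 gate at 17.9 (13.4 to 23.5), below the Col3a1 gate. At a gate of 3 marker UMIs, Col3a1 cells held 29.03 CPM (26.6 to 31.6) and Col2a1 cells 27.98 (22.15 to 34.9), and the intervals overlapped. From the Col2a1 gate down, no population was set apart from the next. The Krt5 gate held 12.4 CPM and the C1qa gate 3.97. Endothelial groups gave 1.97 CPM in control heart, 7.65 in iSuRe-Cre heart, 6.01 in iSuRe-HadCre heart, 9.55 in control liver, 5.46 in iSuRe-Cre liver and 15.0 in iSuRe-HadCre liver. Free RNA itself held Notch3 at 21.7 CPM (13.2 to 33.5), of which a cell holds only its free RNA share.

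Relative to control heart, which held 6 Notch3 UMIs, the ratio was 3.87 in iSuRe-Cre heart (95% interval 1.69 to 10.9) and 3.05 in iSuRe-HadCre heart (1.18 to 9.27). In liver the ratios of 0.572 (0.271 to 1.39) and 1.57 (0.604 to 4.38) had intervals that held 1. With free RNA subtracted the heart ratios were 3.64 and 3.99 and the liver ratios 0.37 and 1.55. The last, of iSuRe-HadCre liver, rests on a free RNA share that is likely too high. Markers of the 2 kinds of mural cell known for Notch3 went different ways in iSuRe-Cre heart. The 6 pericyte markers other than Notch3 were all counted there and summed to 159.2 CPM (Rgs5 highest at 82.7), against 54.6 in control heart (Abcc9 highest, all 6 counted) and 46.6 in iSuRe-HadCre heart. Of those that passed the filter of 200 UMIs, Rgs5 was 2.27 higher than control on the log2 scale of CPM + 10 and Abcc9 0.20. The smooth muscle list summed to 108.6 CPM in control heart (Acta2 highest at 52.65), 33.8 with iSuRe-Cre (6 of 7 counted, Acta2 at 14.1) and 43.6 with iSuRe-HadCre (5 of 7 counted, Myl9 highest). The part of either kind of cell in the Notch3 ratios was not tested beyond leaving out cells with a mural UMI. Without cells that had a UMI of any of 7 mural genes, the iSuRe-Cre heart ratio was 2.52 with an interval of 0.324 to 114, and the iSuRe-HadCre heart ratio 5.1 (0.619 to 234). Both intervals also held 1 with HTODemux hashtag calls combined with a log-normalized Cdh5 level above 0.9, at ratios of 1.42 (0.903 to 2.28) and 1.47 (0.871 to 2.5). That of iSuRe-HadCre heart held 1 under 5 more alternatives, among them the Cdh5 level alone (2.44, 0.895 to 7.68) and fewer than 6000 genes per cell (1.6, 0.379 to 7.69). A Notch3 UMI was found in 1.96% of control heart, 6.64% of iSuRe-Cre heart and 4.7% of iSuRe-HadCre heart cells, or 0.254%, 1.04% and 0.466% after thinning. Hepatocyte-gated cells had 1.35% after thinning, so no Notch3 expression is read from these endothelial shares. The Myh11 gate had 9.69% and the Col3a1 gate 5.33%.

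The make-up of the receptor UMIs also differed between the populations. Notch1 gave 68.0% of receptor UMIs in control heart, and of those in the Krt5 gate and control liver 69.6% and 68.6%. Notch2 gave 62.0% in the Col2a1 gate, 54.2% in the Col3a1 gate and 62.7% in the C1qa gate, and Notch3 49.1% in the Myh11 gate. In iSuRe-HadCre heart, Notch4 gave 46.9% of 350 receptor UMIs (95% interval 41.5 to 52.2), against 23.7% in control heart (20.3 to 27.2) and 10% in iSuRe-Cre heart (6.9 to 13.9). In liver, Notch4 gave 28.6% in iSuRe-HadCre (19.6 to 39.0), 12.6% in control (8.05 to 18.4) and 7.52% in iSuRe-Cre (5.61 to 9.81). A share moves with the other receptors too, and the Notch4 level itself was 1.03 of control in iSuRe-HadCre heart and 1.14 in iSuRe-HadCre liver, while that of Notch1 was 0.171 and 0.234. Such shares compare populations and not receptors with each other, since capture may differ between genes.

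**Figure D3:**
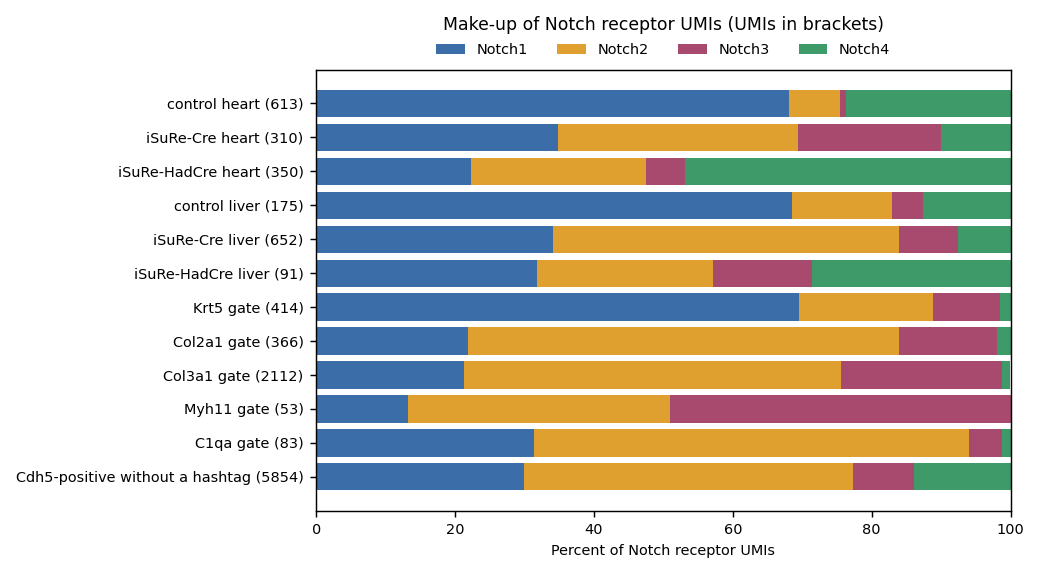
Percent of all Notch receptor UMIs (x axis) that came from each receptor in each population, with the number of receptor UMIs in brackets. The Prph gate had none and is left out. Notch1 takes 68.0% to 69.6% in both controls and the Krt5 gate, Notch2 54.2% to 62.7% in the Col2a1, Col3a1 and C1qa gates, and Notch4 46.9% in iSuRe-HadCre heart, where its level was 1.03 of control and that of Notch1 0.171.

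Since the groups differ in their mix of endothelial types, the receptors were also read in cells with at least 3 UMIs of 1 marker. Stab2, a scavenger receptor of liver sinusoids, was that high in 58.6% of iSuRe-Cre liver, 19.0% of iSuRe-HadCre liver and 1.64% of control liver cells. In Stab2 cells of iSuRe-Cre liver, Notch1 was at 20.2 CPM and Notch4 at 3.10 CPM (529 cells). In 16 such cells of iSuRe-HadCre liver they were at 21.8 and 36.4 CPM, on 3 and 5 UMIs. The Notch4 ratio of iSuRe-HadCre to iSuRe-Cre liver in Stab2 cells was 11.7 (3.44 to 32.2). Vwf (von Willebrand factor, of larger vessels) marked 31 liver cells of the control, 184 of the iSuRe-Cre and 30 of the iSuRe-HadCre group, in which Notch1 was at 154, 27.5 and 29.7 CPM and Notch4 at 18.1, 3.77 and 18.9 CPM. Within Vwf cells the Notch4 ratio to control was 0.208 in iSuRe-Cre (95% interval 0.074 to 0.607) and 1.04 in iSuRe-HadCre (0.322 to 3.3). Notch1 in this subset did not set iSuRe-HadCre apart from iSuRe-Cre (1.08, 0.516 to 2.05). Notch2 in Vwf cells was 0.416 of control in iSuRe-Cre (0.236 to 0.764) and 0.332 in iSuRe-HadCre (0.0962 to 0.927), lower than the ratios of 1.06 and 0.89 over all liver cells.

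Npr3 marks endocardial cells. In the heart they held Notch2 at 65.3 CPM in control heart (10 cells, 95% interval 33.7 to 114), 60.9 in iSuRe-Cre heart (43 cells, 44.6 to 81.3) and 55.4 in iSuRe-HadCre heart (15 cells, 30.3 to 93.0). They made up 3.92%, 9.84% and 4.7% of those groups. Their Notch1 was at 114, 23.8 and 15.8 CPM, and their Notch4 rested on 1, 1 and 2 UMIs. In liver, cells this high in Npr3 made up 21.3% of control, 1.33% of iSuRe-Cre and 2.38% of iSuRe-HadCre. The 13 such cells of control liver held Notch2 at 54.65 CPM, so Npr3 did not set the heart groups apart. Gja5 (connexin 40) marks arterial cells, and 10 such cells in control heart had the most Notch1, 369.7 CPM (266.5 to 499.8), and the most Notch4, 132 CPM (73.9 to 218), of any subset of at least 10 cells. In liver, Notch1 in Gja5 cells was at 134.5 CPM in 11 control and 56.3 CPM in 19 iSuRe-Cre cells, a ratio of 0.418 (0.21 to 0.825), against 0.151 over all cells and 0.179 in Vwf cells. Fabp4 was that high in 77.0% to 98.4% of every group, heart and liver, so it set no subset apart. In Fabp4 cells of the heart Notch4 was at 47.7, 3.77 and 51.7 CPM in control, iSuRe-Cre and iSuRe-HadCre.

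**Figure D4:**
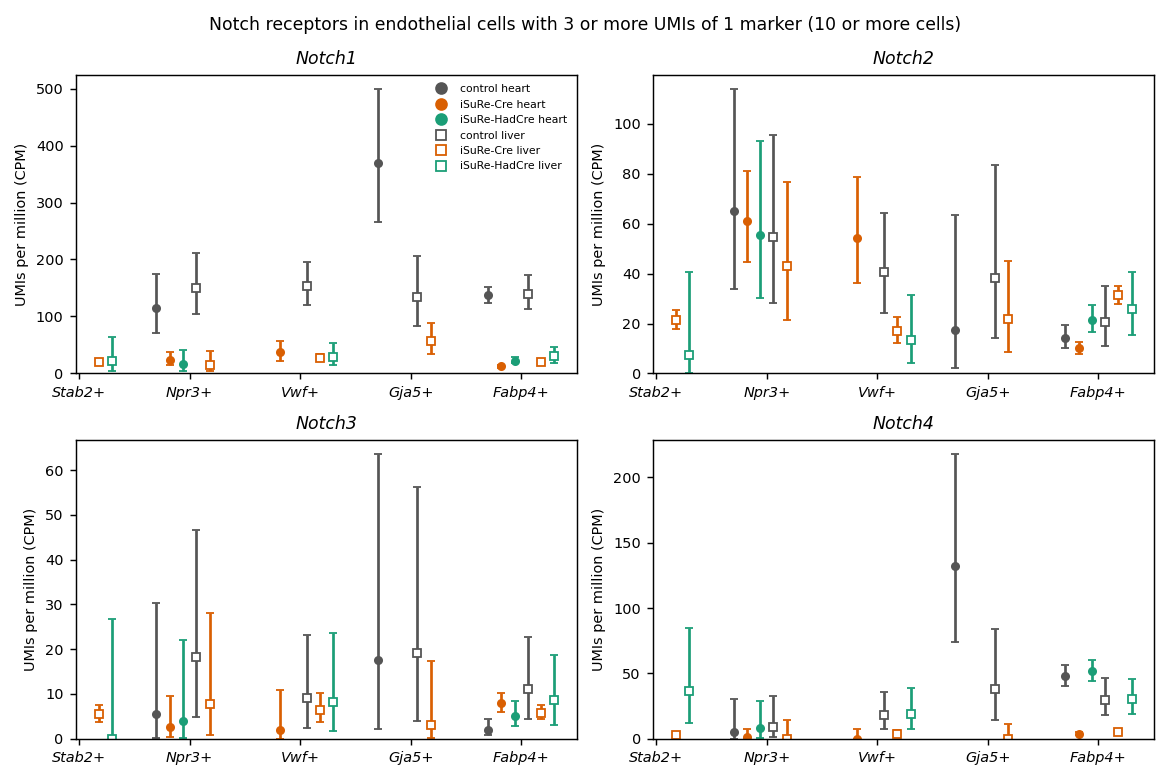
CPM (y axis, from 0) of each Notch receptor in endothelial cells with 3 or more UMIs of the marker on the x axis, for subsets of at least 10 cells, with exact 95% Poisson intervals. Filled circles are heart and open squares liver, and a cell may be in several subsets. Notch2 in Npr3 cells lies between 42.9 and 65.3, and the Notch4 points of both iSuRe-Cre groups at 4.88 or less. Of these, 3 rest on 0 UMIs, with intervals that reach 7.18 (Vwf, heart), 11.5 (Gja5, liver) and 14.4 CPM (Npr3, liver).

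Against all genes, few Notch receptors had counts enough to be called. Calling meant a difference of at least 2-fold in CPM + 10 among genes with at least 200 UMIs over both groups. In iSuRe-Cre against control heart, where 3.12% of 7201 genes were called, 1 receptor passed the filter and was called lower (Notch1, log2 -2.68), and Notch4 had 176 UMIs and did not pass. In iSuRe-HadCre against control heart (1.29% of 5574 genes called), Notch1 and Notch4 passed, of which Notch1 was called (log2 -2.14). In iSuRe-Cre against control liver (5.36% of 7599 genes called), Notch1 and Notch2 passed and Notch1 was called (log2 -2.28), while in iSuRe-HadCre against control liver (2.28% of 1713 called) none passed. Between the alleles, 2.82% of 7434 genes were called in heart, where no receptor passed, and 3.85% of 7591 in liver, where Notch1 and Notch2 passed and neither was called.

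Among ligands and targets of the pathway, Hey1 and Hes1 were called lower in iSuRe-Cre heart and Dll4 and Jag1 in iSuRe-Cre liver. Of all genes tested, 0.889% and 2.04% were called lower there. Other listed genes that passed the filter were not called. Dll4, the main endothelial Delta-like ligand, was at 44.4 CPM in control heart, 20.0 with iSuRe-Cre and 45.7 with iSuRe-HadCre, and at 46.5, 17.6 and 37.0 CPM in the 3 liver groups. Jag1, a Jagged ligand, was at 53.3, 21.99 and 47.8 CPM in heart and 75.2, 30.3 and 68.1 in liver, in the same order. Of the 7 ligands, 4 passed the filter in iSuRe-Cre against control heart with none called (median log2 -0.65, against -0.04 for all genes, from -0.98 for Jag1 to -0.03 for Dlk1). In liver 4 passed, where Dll4 and Jag1 were called lower (log2 -1.04 and -1.08), as were 2.04% of all genes tested, and Dll1 was at 0.29. Both calls lay close to the 2-fold cut, and TMM scaling moved the median log2 of all genes in this comparison from -0.04 to 0.07. In iSuRe-HadCre heart 4 passed and none was called (median log2 0.14, against 0.09 for all genes), with Dll4 at 1.03 times control (95% interval 0.811 to 1.31).

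Hey1, a direct Notch target encoding a repressor, was at 50.02 CPM in control heart, 11.95 with iSuRe-Cre and 52.9 with iSuRe-HadCre. As a ratio to control this was 0.239 for iSuRe-Cre (0.184 to 0.309) and 1.06 for iSuRe-HadCre (0.847 to 1.32). In liver Hey1 was at 31.0, 4.78 and 32.3 CPM, on counts under the filter. Hes1, another target repressor, was at 248 CPM in control heart, 114 with iSuRe-Cre and 196 with iSuRe-HadCre (0.79 of control in the last, 0.711 to 0.879), and at 165, 78.8 and 121 CPM in the liver groups. Of the 7 targets listed, Hey1, Hes1 and Nrarp passed in heart. Hey1 and Hes1 were called lower in iSuRe-Cre (log2 -1.45 and -1.06), as were 0.889% of all genes tested. None was called in iSuRe-HadCre heart, where 0.161% of all genes tested were called lower. The Hes1 call lay close to the 2-fold cut, and TMM scaling moved the median log2 of all genes in iSuRe-Cre against control heart from -0.04 to 0.01. Nrarp, a feedback inhibitor, was 0.998 times control in iSuRe-Cre heart (0.826 to 1.21) and 0.514 in iSuRe-Cre liver (0.379 to 0.71), where 2 targets passed and none was called. Between the alleles Hey1 was called higher in iSuRe-HadCre heart (log2 1.52, where the median of all genes was 0.14), as were 1.72% of all genes tested.

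No gene for receptor glycosylation (up to 4 of 5 passing the filter), cleavage (up to 8 of 9), turnover (up to 5 of 7) or the nuclear complex (up to 8 of 8) was called in any of the 6 comparisons. Of all genes tested, 1.29% to 5.36% were called per comparison, so a count of 0 in lists this small is near that share. In iSuRe-Cre against control heart their list medians were -0.10, -0.22, -0.25 and -0.22 on the log2 scale. Adam10, the first protease to act on bound receptors, was at 188.6 CPM in control and 187.5 in iSuRe-Cre heart. Of the 8 endothelial markers all passed, and only Kdr, the main VEGF receptor, was called, higher than control in iSuRe-Cre heart (log2 1.33), iSuRe-HadCre heart (2.03) and iSuRe-Cre liver (1.99), and lower in iSuRe-HadCre than in iSuRe-Cre liver (-1.10). The median of the endothelial markers was -0.37 on the log2 scale in iSuRe-Cre against control heart.

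Ligands and other pathway genes also differed between cell types. Dll4 was at 0.231 CPM in the Col3a1 gate and had no UMI in the other 5 gates. Jag1 was at 46.8 CPM in the Myh11 gate, 30.6 in the Krt5 gate and 0 in the C1qa gate, and Jag2 at 36.5 CPM in the Krt5 gate. Dlk1, a non-canonical ligand, was at 668.5 CPM in the Col3a1 gate and 7.12 in the Krt5 gate. Mfng, a fringe glycosyltransferase, was at 31.2 to 61.9 CPM in the endothelial groups and at 0.619 in Krt5, 3.44 in Col2a1, 1.50 in Col3a1 and 8.92 in C1qa cells, with no UMI in the Myh11 gate and 2 in the 7 Prph cells. Rbpj, the DNA-binding partner of all 4 receptors, was at 571 CPM in the C1qa gate and 64.8 to 162 in the other 11 populations. Hes5 was at 27.9 CPM in the Col2a1 gate, which also held the glial and neural gene Fabp7 at 535 CPM, so this gate may hold more than 1 cell type.

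The genes most like each receptor over the 12 populations, by Pearson correlation of log2(CPM + 10) among 11834 genes with at least 200 UMIs, are given as a description. The populations share 1 library, and the Prph gate with its 7 cells is a point of low depth. For Notch4 they were Car7 (r = 0.97), the transgene sequence Bgh-pA (0.94), Sema7a (0.94), Vps13d (0.94) and Abcb1a (0.94). Sema7a was at 63.5, 20.7 and 52.0 CPM in control, iSuRe-Cre and iSuRe-HadCre heart, and Abcb1a at 81.9, 16.0 and 53.8 CPM. For Notch1 they were Rhbdl3, Spen, Pltp, Sidt2 and Mepce (0.83 to 0.81), of which Pltp was at 118 CPM in control heart, 22.5 in iSuRe-Cre heart and 75.2 in the Krt5 gate. For Notch2 they were Selenos, Zswim7, Spg20, Tns3 and Tmem97 (0.97 to 0.93) and for Notch3 Evc, Smarcd3, Fzd1, Fzd7 and Thoc1 (0.96 to 0.94). Between the receptors themselves r was 0.55 for Notch1 and Notch4, 0.60 for Notch2 and Notch3, and 0.26 for Notch1 and Notch2. Without the Prph gate, where all 4 were at 0, these were 0.50, 0.42 and -0.23.

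Markers of other cell types also differed between the groups compared. The hepatocyte list summed to 456 CPM in iSuRe-Cre heart (6 of 7 genes counted, Alb highest at 137), against 82.3 in control heart and 55.0 in iSuRe-HadCre heart. In liver it summed to 1216 CPM in control, of which Ttr gave 1173, against 392 in iSuRe-Cre and 38.1 in iSuRe-HadCre. The macrophage list summed to 768 CPM in iSuRe-Cre liver, of which Mrc1, also known from sinusoidal endothelium, gave 604.5, against 29.8 in control liver. Without cells that had a UMI of Mrc1, C1qa, C1qb, Alb or Apoa1, an alternative chosen after seeing the data, Notch4 in iSuRe-Cre heart was 0.0499 of control (0.0257 to 0.0895), against 0.0776 over all cells. In iSuRe-Cre liver it was 0.306 of control (0.1455 to 0.652), against 0.182, and iSuRe-HadCre liver was then 3.12 times iSuRe-Cre liver (1.51 to 6.42), against 6.28. In heart that ratio was 21.55 (12.2 to 41.6). Notch2 in iSuRe-Cre liver was 3.48 of control in the same cells (1.53 to 9.76), against 1.06.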

How the data were processed

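The deposited matrix holds raw UMI counts of 1 10x library over 2755147 barcodes. Per the labels and the study's methods, the authors aligned and counted with Cell Ranger 7.1.0 on GRCm38 with Ensembl genes and transgene sequences added. The 2 deposited samples are the gene and the hashtag reads of this library. Which end of the transcript was read is not named for this library in the sources used here. The paper's discussion states that scRNAseq cannot show the deletion of floxed genes that keep their 3′ mRNA. Another 7 tag features without a group were not used.

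Barcodes with 2000 to 75000 gene UMIs, more than 500 genes and mitochondrial and haemoglobin shares below 5% were kept (14348). A hashtag was positive at 25 UMIs (140 for that of iSuRe-Cre liver). Exactly 1 positive hashtag was required in 2059 Cdh5-positive cells, 156 such cells with several were left out as doublets, and no doublet caller was run. UMIs were summed per population and divided by all gene UMIs. Intervals were Poisson for levels, binomial for shares and conditional binomial for ratios. Counts came from 1 pool per group, so no p-value was computed. Where a UMI count was 0, the limit is 3 counts. The ranges of depth over the populations are given in the report. Python 3.11.15, scipy 1.17.1 and R 4.3.3 with Seurat 5.3.0 (HTODemux) and edgeR 4.0.16 (TMM factors only) were used, and the ratio and interval steps were tested on simulated data.

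The members, gene lists and alternatives were chosen with earlier results of these data known. Genes named are the 4 receptors, genes of the pathway and marker lists, the 5 genes most like each receptor and, within a list, the 2 with the largest ratios in either direction. Genes near Notch4 were added after seeing the data. Alternatives changed the cell, hashtag, quality and marker criteria, the averaging, free RNA and the gene filter.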

Additional observations from a re-analysis of the deposited data

Results flagged for a closer look

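Several receptor ratios pointed one way in heart and the other way in liver. These differences between the tissues were not tested, since each group is 1 pool. Notch2 in iSuRe-Cre was 0.8634 of control in heart and 1.063 in liver, with both intervals holding 1. Notch2 in iSuRe-HadCre was 1.787 of control in heart and 0.8903 in liver, and set against iSuRe-Cre it was 2.07 in heart (1.3 without cells that had a mural UMI) and 0.8379 in liver. With HTODemux hashtag calls and a log-normalized Cdh5 level above 0.9 together, that liver ratio was 1.401 (1.08 to 1.8). It then lay on the same side of 1 as the heart ratio (1.955). Notch3 in iSuRe-Cre was 3.873 of control in heart, on 6 control UMIs, and 0.5722 in liver, on 8. Notch3 in iSuRe-HadCre was 0.7864 of iSuRe-Cre in heart (0.451 to 1.32) and 2.748 in liver. The liver ratio was 0.6406 with a WPRE level above 0.5, and 0.5838 with HTODemux calls and a Cdh5 level above 0.9 together. The heart ratio was 2.022 (0.561 to 7.03) without cells that had a mural UMI.

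Levels above both controls were also present in cells that entered no comparison between groups. The 6103 Cdh5-positive cells without a hashtag had Notch2 at 64.03 CPM and Notch3 at 11.84 CPM, and the 156 with several hashtags had Notch2 at 43.2 CPM. Free RNA held Notch2 at 60.69 CPM (45.8 to 78.8) and Notch3 at 21.67 CPM (13.2 to 33.5), and the free RNA share of these cells was not estimated. The highest control levels were 29.83 CPM for Notch2 and 9.546 CPM for Notch3, both in liver. That Notch3 level rests on 8 UMIs, and no interval was computed for these differences. In the cells without a hashtag, the hepatocyte list summed to 2193 CPM and the mesenchymal list to 822.5 CPM, against 1216 and 615.7 CPM in control liver, and the part of such RNA in the Notch2 level was not tested.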

How the results depend on the processing

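Of 382 receptor ratios recomputed under the alternatives, 320 moved within their counting interval, and of 284 gate levels 269 did. These counts hold repeats. The mean over cells and that over thinned cells gave equal values, and both WPRE settings gave equal ratios between the alleles. A ratio crossed 1 in 42 of the 382, 19 of them for Notch3, 16 for Notch2, 7 for Notch4 and none for Notch1, and in 39 of the 42 its interval held 1 before the change. Notch1 relative to control stayed below 1 under every alternative run, at 0.04817 to 0.1355 in iSuRe-Cre heart, 0.1096 to 0.2305 in iSuRe-HadCre heart, 0.1012 to 0.2231 in iSuRe-Cre liver and 0.1216 to 0.3653 in iSuRe-HadCre liver. Notch4 ran from 0.04993 to 0.131 in iSuRe-Cre heart, 0.9963 to 1.19 in iSuRe-HadCre heart, 0.1226 to 0.3057 in iSuRe-Cre liver and 0.8916 to 1.37 in iSuRe-HadCre liver. A WPRE level above 0.5 gave, for iSuRe-Cre heart, Notch1 0.1347 (0.1355 with controls filtered too) and Notch4 0.1291 (0.131). HTODemux hashtag calls together with a log-normalized Cdh5 level above 0.9 gave Notch1 0.1309, 0.2305, 0.2231 and 0.3653 in iSuRe-Cre heart, iSuRe-HadCre heart, iSuRe-Cre liver and iSuRe-HadCre liver, and the mean over cells or thinned cells 0.06057, 0.1096, 0.1028 and 0.1471. Below 6000 genes per cell, Notch1 was 0.04817 in iSuRe-Cre heart, 0.1115 in iSuRe-Cre liver and 0.1216 in iSuRe-HadCre liver. Without cells holding another gate marker it was 0.06378 in iSuRe-Cre heart, and without a macrophage or hepatocyte UMI (chosen after seeing the data) 0.07453 there and 0.1956 in iSuRe-Cre liver, with Notch4 at 0.04993 in heart. In iSuRe-Cre liver, Notch1 was 0.2007 at a hashtag minimum of 10, 0.1191 without the deepest 5% of cells and 0.1012 without mural UMIs. Notch1 in iSuRe-HadCre relative to iSuRe-Cre ran from 1.261 to 2.755 in heart and 1.076 to 1.859 in liver, and Notch4 from 8.137 to 21.55 in heart. The Notch3 ratio of iSuRe-HadCre to iSuRe-Cre liver, 2.748, reversed to 0.6406 under both WPRE settings and 0.5838 with HTODemux and that Cdh5 level together (1.14 with the Cdh5 level alone). The cause of these shifts was not tested.

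Notch1 in the Krt5 gate was 100.1 CPM at 20 marker UMIs and 103.4 CPM when only Cdh5 was barred, and Notch2 in the Col2a1 gate 90.88 CPM as the mean over cells or thinned. At 3 marker UMIs the Col2a1 gate rose to 39.67 CPM of Notch1 and 27.98 of Notch3 (27.54 and 17.9 at 5), and at 20 it held 18.13 CPM of Notch1. The Krt5 gate at 20 held 18.61 CPM of Notch3 (12.38 at 5) and the Myh11 gate 16.8 of Notch2 (29.23). The Prph gate held 10 cells with 7 Notch1, 5 Notch2 and 1 Notch3 UMIs at 3 marker UMIs, 3 cells without a receptor UMI at 10, and no cell at 20. With up to 2 UMIs each of Cdh5 and Pecam1 allowed, an alternative chosen after seeing the data, it held 14 cells with 1 Notch2 and 4 Notch4 UMIs. Genes past 2-fold in iSuRe-HadCre against control went from 72 to 175 in heart and 39 to 159 in liver at a minimum of 50 UMIs. With 1 CPM added there were 126 in iSuRe-HadCre against control heart, and between the alleles 360 in heart (210 with 10 CPM) and 439 in liver (292). TMM scaling moved the share of higher calls from 60.95% to 30.43% between the alleles in heart, from 87.5% to 74.19% in iSuRe-HadCre against control heart, and from 61.92% to 73.66% in iSuRe-Cre against control liver. Control liver held 61 cells and iSuRe-HadCre liver 84, the fewest of the 6 groups. No paired analysis was possible because each group is 1 pool without a replicate number shared between groups.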

Other observations

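Receptors were also read in pairs within single cells. In iSuRe-HadCre heart, 14 of the 15 cells with a Notch3 UMI also had a Notch2 UMI, against 9.54% of the cells without Notch3. Cells with Notch3 had a median of 28889 UMIs and those without 7254, so depth moved with this overlap and its part was not tested. In the same group Notch2 was found in 10.2% of cells with Notch4 and in 15.2% of cells without it, at medians of 8835 and 7092 UMIs.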
